A study of Mus musculus with 8 samples.

Results

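Lysosome and autophagy genes were followed in the hippocampus of aged mice that carry the APPswe transgene, an amyloid precursor protein gene with the Swedish mutation. The set was a named list of 35 genes, matched by symbol in the platform's probe gene table, with the brightest probe set standing for a gene. Of these, 33 were found among 19505 named genes, and all 33 passed the filter on dim genes. Ctsd and Optn were not matched and are not analysed here. RNA came from 8 mice, 1 array per mouse, whose genotype the labels give as B6.Cg-Tg(APPswe)E1-2Dbo/J, at 18 to 20 months of age. All were tested in the Morris water maze, a test of spatial memory, and then killed by cervical dislocation. The labels sort them by memory status into an impaired group of 4 and an intact group of 4. Both groups carry the transgene and have the same age range, so the comparison is between mice of 1 genotype, and mice without the transgene are not analysed here. The labels call these biological replicates. How the memory groups were defined, the sex of the mice and any batch were not used here.

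Lysosomes are acidic compartments where hydrolases digest proteins, sugars and lipids. Autophagy delivers cytoplasm to them: a kinase and a lipid kinase complex start a membrane, conjugation enzymes attach ATG8 proteins to it, and cargo receptors tie the load to those proteins. The transcription factors TFEB, TFE3 and MITF drive many of these genes through an E-box whose palindromic form is known as the CLEAR element. In the brain, neurons rely on this system to clear organelles and aggregates, microglia are rich in cathepsins and progranulin, and swollen neurites near amyloid plaques fill with autophagic and lysosomal material.

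Promoter sequence was available for 28 of the 33 genes, in 35 windows of 300 bases that run from 250 bases before to 50 after a start site (RefSeq, GRCm38.p6). The E-box core searched was CACGTG, and the extended palindrome was TCACGTGA, which contains that core. Both read the same on either strand. The core was in 10 of 28 genes (35.7%), against 10.8% of the genes tested that have a promoter. Counted by window, it was in 10 of 35 (28.6%), against 9.11% of windows of genes tested and 7.15% of all promoter windows. The extended palindrome was in 3 of 28 genes (10.7%), against 1.81% of genes tested that have a promoter. By window it was in 3 of 35 (8.57%), against 1.52% of windows of genes tested and 0.974% of all windows. The 150 bases before the start site are printed 5′ to 3′ on the strand of the gene, with the motif in capitals, and of several windows the one with a motif is shown. Ctsa, Mcoln1 and Cln3 are shown because they hold the extended palindrome, Lamp1 because it holds the most cores, and Gusb because it had the smallest p of the set.
Ctsa: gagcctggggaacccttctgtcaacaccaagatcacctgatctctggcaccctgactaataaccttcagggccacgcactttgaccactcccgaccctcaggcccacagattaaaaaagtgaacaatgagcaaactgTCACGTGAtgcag
Mcoln1: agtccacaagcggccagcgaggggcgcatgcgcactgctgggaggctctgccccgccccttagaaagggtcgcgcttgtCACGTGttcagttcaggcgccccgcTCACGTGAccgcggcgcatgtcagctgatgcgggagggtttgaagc
Cln3: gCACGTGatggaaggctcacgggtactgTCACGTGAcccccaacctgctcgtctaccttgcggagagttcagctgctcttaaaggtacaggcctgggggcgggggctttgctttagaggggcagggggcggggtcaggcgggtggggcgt
Lamp1: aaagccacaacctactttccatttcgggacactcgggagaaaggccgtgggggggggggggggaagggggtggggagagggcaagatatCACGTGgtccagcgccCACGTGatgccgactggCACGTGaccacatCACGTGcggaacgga
Gusb: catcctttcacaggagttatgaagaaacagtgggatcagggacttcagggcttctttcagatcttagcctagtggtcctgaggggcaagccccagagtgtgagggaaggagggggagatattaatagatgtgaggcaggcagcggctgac

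The Ctsa stretch is chr2:164833623-164833772 on the plus strand, and its palindrome begins 13 bases before the start site, with a second copy at base 5 after it. Mcoln1 lies at chr8:3500369-3500518 (plus), with a core 71 bases and the palindrome 46 bases before the start. Cln3 lies at chr7:126583237-126583386 (minus), with a core at 149 and the palindrome at 122 bases before the start. Lamp1 lies at chr8:13159011-13159160 (plus) and holds 4 cores between 61 and 15 bases before the start. Gusb lies at chr5:130003050-130003199 (minus), and neither motif was in its 300-base window. The other genes with a core were Ctsf, Ctsl, Lgmn, Gaa, Atg5 and Atg7.

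Values are log2 array intensities that the authors normalized with RMA, and a step of 1 doubles the signal. Levels of different genes are not compared, because probes differ in brightness. Of the 33 genes, 28 had a mean above 7.98, the 95th percentile of the array's 5222 negative controls, which 44.6% of genes tested exceeded. Those below it were Ctsh, Gusb, Npc2, Tfeb and Tfe3, and none of the 33 lay below the controls' 75th percentile of 6.36. Of the 8 neuron markers most are general to the forebrain and do not check the hippocampal label. Prox1, which marks dentate granule cells but is not confined to them, was at 9.50 to 10.04. Markers of tissue next to the hippocampus varied widely, with mean levels of 6.79 to 8.92 for the choroid plexus list and 7.71 to 9.83 for the thalamus list.

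None of the 33 genes passed an adjusted p of 0.05 (limma, Benjamini-Hochberg over 14628 genes, adjusted p 0.961 to 0.997), and neither did any other gene tested (0%). At an unadjusted p under 0.05, 1 of the 33 was higher in impaired mice, Gusb, and 0 were lower. The background was 2.17% of genes tested higher and 2.52% lower. In Gusb and Ctsl every impaired mouse lay above every intact mouse, and with all 8 mice no gene of the set showed the opposite. Among all genes tested, 1.12% were separated in that direction and 1.46% in the other. The difference, impaired minus intact, was above 0 in 19 of 33 genes and below 0 in 14, where 47.1% of genes tested were above 0.

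The measured differences were small, and their median standard error exceeded the median size of a difference. Differences ran from -0.15 for Gaa to 0.23 for Gusb, with a median of 0.015, against a median of -0.0083 over all genes tested. The median size of a difference without its sign was 0.080, beside 0.077 for all genes. The median standard error was 0.093 in the set and 0.10 over all genes. The 95% interval lay within 0.3 of 0 on the log2 scale, a 1.23-fold change either way, for 18 of 33 genes. It lay within 0.5, a 1.41-fold change, for 31 of 33. The widest bounds were -0.40 for Gaa and 0.63 for Ctsh. In whole tissue such a value mixes all cell types, and fewer cells of a type and less RNA per cell cannot be told apart.

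**Figure D1:**
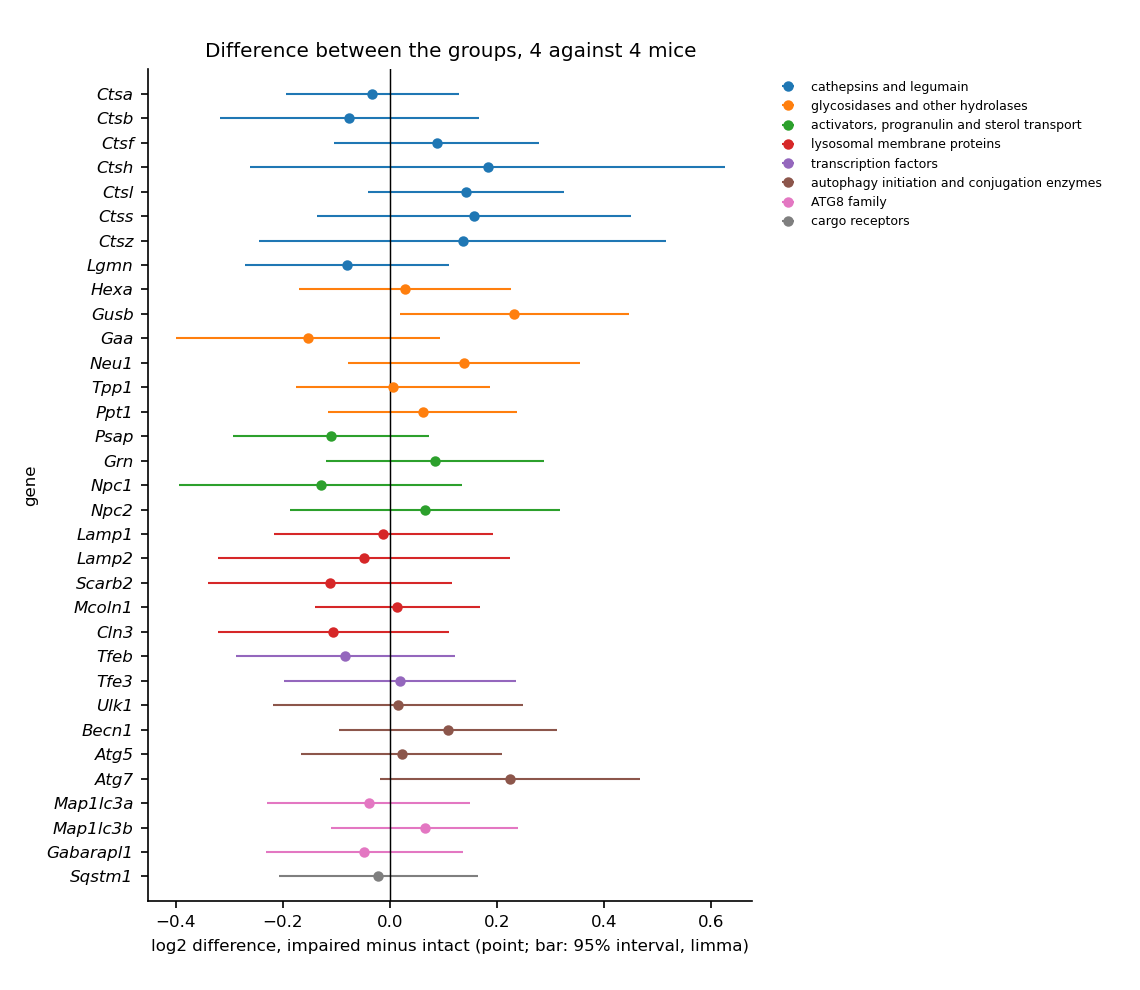
Difference between impaired and intact mice for the 33 genes on the log2 scale (horizontal axis), coloured by role; points are fitted differences and bars 95% intervals from limma, 4 against 4 mice. The points lie between -0.15 and 0.23, and the interval of Gusb is the only one that does not reach 0.

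Cathepsins, the proteases of the lysosome, and legumain, an endopeptidase that processes some of them, had 8 genes tested. Of these, 5 were higher in impaired mice and 3 lower, with a median difference of 0.11. Ctsl encodes cathepsin L, an endopeptidase. It measured 8.775, 8.804, 8.741 and 8.867 in impaired mice 1 to 4 and 8.723, 8.740, 8.490 and 8.668 in intact mice 1 to 4. The groups did not overlap, although impaired mouse 3 and intact mouse 2 nearly met, and intact mouse 3 lay below the rest. The difference was 0.14, with a standard error of 0.083 (95% interval -0.041 to 0.32, limma unadjusted p = 0.116, adjusted p = 0.961). Without intact mouse 3 it was 0.087.

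Cathepsins S, Z and H were singled out after their values were seen, because they varied most between mice. Ctss, a cathepsin of microglia and macrophages, measured 8.89, 9.02, 9.31 and 8.91 in impaired mice and 9.05, 9.10, 8.60 and 8.75 in intact mice. Ctsz, a carboxypeptidase, measured 8.523, 8.511, 9.002 and 8.607 against 8.590, 8.949, 8.092 and 8.468. Ctsh, an aminopeptidase, measured 7.66, 7.44, 7.84 and 7.07 against 7.14, 7.75, 6.89 and 7.50. In all 3 genes impaired mouse 3 was the highest of the 8 and intact mouse 3 the lowest, and the groups overlapped.

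The differences of these 3 genes were 0.16 for Ctss, 0.14 for Ctsz and 0.18 for Ctsh. Without mouse 3 of both groups, the highest and the lowest value of each gene, the differences could only fall. They turned to -0.026, -0.12 and -0.073. Their spread over the 8 mice stood at the 78.6th, 92.5th and 97.1st percentile of all genes tested. Ctsf, a papain-like cathepsin, differed by 0.087. Lower means in impaired mice were found for Ctsa, the protective protein of neuraminidase, at -0.033, for Ctsb, an abundant cysteine cathepsin, at -0.076, and for Lgmn at -0.080. Adjusted p was 0.96 or more for each gene of this role. Ctsb ran from 11.38 in intact mouse 3 to 11.85 in intact mouse 2, so that its whole range lay inside the intact group.

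Of 6 glycosidases and other hydrolases, 5 had a higher mean in impaired mice, with a median difference of 0.045. Gusb encodes beta-glucuronidase, which cuts glucuronic acid from glycosaminoglycans. It measured 7.32, 7.29, 7.48 and 7.27 in impaired mice and 7.20, 7.26, 6.91 and 7.07 in intact mice. The impaired mice all lay above the intact ones, closest at 7.27 against 7.26. The means were 7.34 ± 0.097 and 7.11 ± 0.16 (SD, n = 4 each), both under the controls' 95th percentile. The difference was 0.23 with a standard error of 0.097, or 1.18-fold (95% interval 1.01 to 1.36-fold, limma unadjusted p = 0.0358, adjusted p = 0.961). Without intact mouse 3 it was 0.16 (unadjusted p = 0.109), and without mouse 3 of both groups 0.12 (unadjusted p = 0.245).

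The other hydrolases differed by less. Neu1, the lysosomal neuraminidase, was 0.14 higher, and Ppt1, a thioesterase that removes palmitate from proteins, 0.061 higher. Hexa, a subunit of beta-hexosaminidase, differed by 0.028 and Tpp1, a tripeptidyl peptidase, by 0.0060. Gaa, the enzyme that degrades lysosomal glycogen, had the lowest difference of the set at -0.15. It measured 11.86, 11.86, 11.53 and 12.06 in impaired mice and 12.11, 11.97, 11.88 and 11.96 in intact mice, so that impaired mouse 3 was lowest and impaired mouse 4 lay within the intact range. Without impaired mouse 3 the difference was -0.056. Gaa was singled out after its values were seen.

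Activators, progranulin and sterol transporters gave 2 higher and 2 lower of 4, with a median of -0.022. Psap encodes prosaposin, the precursor of the saposins that help hydrolases reach their lipid substrates. It measured 11.91, 12.10, 11.99 and 12.17 in impaired mice and 12.15, 12.21, 12.09 and 12.14 in intact mice. Impaired mouse 1 was lowest, the groups overlapped, and without that mouse the difference was -0.065. Impaired mice and intact mice differed by -0.11, with a 0.083 standard error (adjusted p = 0.961, limma). Grn, the gene of progranulin, differed by 0.084 with impaired mouse 3 highest at 10.59, and by -0.0047 without mouse 3 of both groups. Npc1 and Npc2, which pass cholesterol out of the lysosome, differed by -0.13 and 0.066. For Npc1, intact mouse 2 was highest at 8.75, with the others at 8.17 to 8.47, and without that mouse the difference was -0.020.

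Of 5 lysosomal membrane proteins, 4 had a lower mean in impaired mice, with a median of -0.049. Cln3, a membrane protein whose loss causes a childhood lysosomal storage disease, had the smallest p of this role. It measured 8.06, 8.31, 8.20 and 8.46 in impaired mice and 8.36, 8.34, 8.29 and 8.46 in intact mice. Impaired mouse 1 was the lowest, the groups overlapped, and the fitted difference, -0.11, had a standard error of 0.097 (adjusted p 0.961 or more, limma). Without impaired mouse 1 it was -0.038. Scarb2, the receptor that carries glucocerebrosidase to the lysosome, differed by -0.11. Lamp1 and Lamp2, the main membrane glycoproteins, differed by -0.012 and -0.049.

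Mcoln1, the TRPML1 calcium channel, was the steadiest gene of the set, as seen after its values were examined. It ran from 9.45 in intact mouse 3 to 9.53 in impaired mouse 3, a range of 0.079 over 8 mice. Its spread was at the 0.048th percentile of all genes tested. The difference was 0.013 with a 95% interval from -0.14 to 0.17. Over the 33 genes, the median SD across the mice was 0.12, beside 0.15 for all genes tested.

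The transcription factors of the set had means under the controls' 95th percentile. Tfeb measured 7.726, 7.782, 7.997 and 7.920 in impaired mice and 7.896, 8.106, 7.856 and 7.902 in intact mice, with impaired mice 1 and 2 lowest. Its difference was -0.084 with a standard error of 0.093, and that of Tfe3 was 0.018, so that the interval of Tfeb spans -0.29 to 0.12. These are transcript levels, and TFEB is known to be controlled largely by its phosphorylation and entry into the nucleus, which the arrays do not measure.

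Among the genes with an E-box core, 5 of 10 were higher in impaired mice, with a median of 0.00060 and a range from -0.15 to 0.22. Of the 18 with a promoter but no core, 12 were higher, with a median of 0.023. The 3 genes with the extended palindrome, Ctsa, Mcoln1 and Cln3, ran from -0.11 to 0.013. The motif and the differences are given side by side as a description.

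All 4 autophagy initiation and conjugation enzymes had a higher mean in impaired mice, with a median of 0.065. Atg7 encodes the E1-like enzyme that activates ATG8 proteins and ATG12 for conjugation. It measured 8.14, 8.33, 8.23 and 7.91 in impaired mice and 7.74, 7.91, 8.10 and 7.96 in intact mice. Impaired mice 1, 2 and 3 lay above all intact mice, and impaired mouse 4 lay among them. The difference was 0.22 with a standard error of 0.11 (95% interval -0.018 to 0.47, limma unadjusted p = 0.0668, adjusted p = 0.961).

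Leaving out mouse 3 of both groups gave Atg7 a difference of 0.26 (limma unadjusted p = 0.0708). Leaving out intact mouse 1 gave 0.16, the lowest value with a single mouse left out. Leaving out impaired mouse 4 gave 0.30 (limma unadjusted p = 0.0158), and the groups then did not overlap. Both outcomes were bound to follow, because it was the lowest impaired mouse and the only one within the intact range. Becn1, a scaffold of the lipid kinase complex, differed by 0.11. Ulk1, the initiating kinase, and Atg5, which forms the conjugation complex with ATG12, differed by 0.015 and 0.022. The 95% intervals of all 3 included 0.

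The ATG8 family and the cargo receptor showed little difference. Map1lc3b, the gene of LC3B, measured 10.55, 10.69, 10.69 and 10.50 in impaired mice and 10.52, 10.59, 10.50 and 10.58 in intact mice. The groups overlapped, with a difference of 0.065 and a standard error of 0.079 (adjusted p 0.961 or more, limma). Map1lc3a differed by -0.039 and Gabarapl1, a member of the GABARAP branch, by -0.047. Sqstm1 encodes p62, a receptor for ubiquitin-tagged cargo that is itself degraded by autophagy. It measured 10.56, 10.64, 10.63 and 10.83 in impaired mice and 10.65, 10.68, 10.64 and 10.77 in intact mice. Its difference was -0.022 with a 95% interval from -0.21 to 0.16, and impaired mouse 4 was highest. Neither LC3 lipidation nor p62 protein is measured by these arrays.

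**Figure D2:**
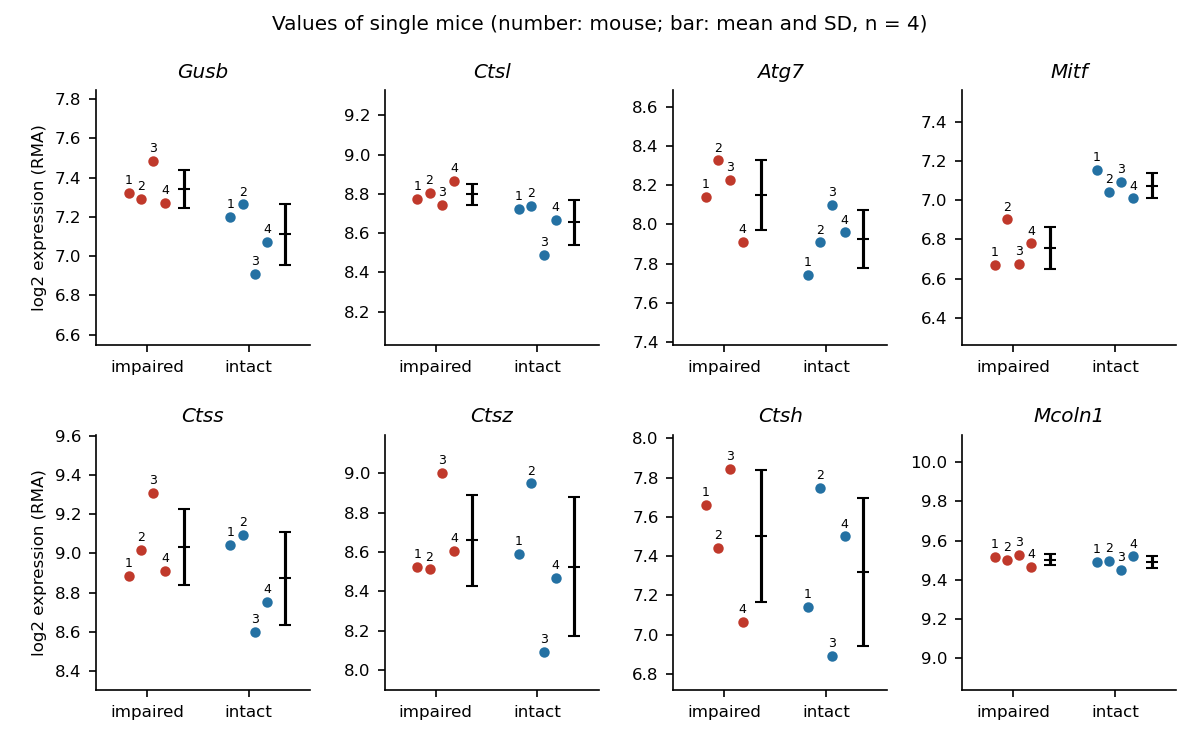
Log2 expression (RMA) of 8 genes in each mouse; points are mice, numbers their replicate number, and bars the mean and SD of 4 mice, with vertical axes of equal length. Gusb, Ctsl and Mitf do not overlap between groups, Ctss, Ctsz and Ctsh have impaired mouse 3 highest and intact mouse 3 lowest, and Mcoln1 stays within 0.079.

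Single mice stood apart over much of the set. Intact mouse 3 had the lowest value of the 8 in 20 of 33 genes (60.6%), in 13.4% of all genes tested and in 24 of 138 other genes of the pathway (17.4%). The lists differed: it was lowest in 8 of 28 other lysosomal hydrolases and cofactors (28.6%), with a median deviation of -0.12. Among V-ATPase subunits it was lowest in 1 of 17 (5.88%), with a median deviation of 0.049. Intact mouse 3 was lowest in 7 of 8 cathepsins and legumain, Lgmn being the exception. Impaired mouse 1 was lowest in 7 genes (21.2%, against 16.3% of all genes): Lgmn, Psap, Cln3, Tfeb, Ulk1, Gabarapl1 and Sqstm1. Impaired mouse 3 was highest in 8 genes (24.2%, against 14% of all genes), of which 4 were cathepsins. Set against each gene's 8-mouse mean, the median deviation of the 33 genes was -0.096 in intact mouse 3, -0.062 in impaired mouse 1 and 0.074 in intact mouse 2.

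**Figure D3:**
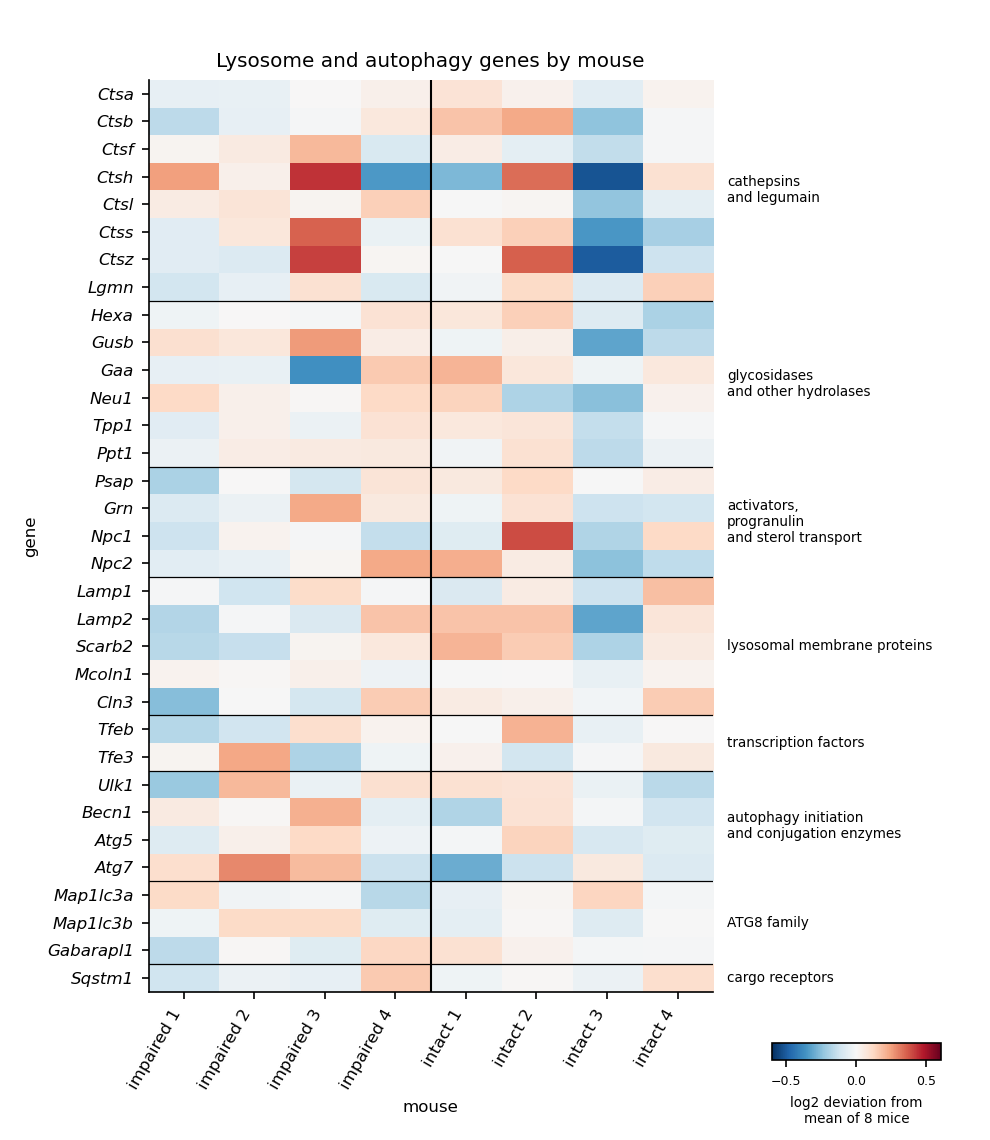
Deviation of each of the 33 genes (rows, by role) from its mean over 8 mice, on the log2 scale, in each mouse (columns, impaired left of the line, intact right). Blue is below and red above the mean, and the column of intact mouse 3 is blue in most rows, with the strongest colours in Ctsh and Ctsz.

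Signs and sizes in the set moved with single mice. Leaving out 1 mouse at a time moved the difference by over 1.5 times in 31 of 33 genes, Gusb and Atg7 being the exceptions. In Ctsf, Ctsh, Ctss, Ctsz, Gusb, Grn and Mcoln1 impaired mouse 3 was highest and intact mouse 3 lowest. Leaving out both mice, which share only a number, could therefore only lower the differences of these genes. Without mouse 3 of both groups, 12 of 33 genes were higher in impaired mice in place of 19, and the median difference was -0.026. Ctss, Ctsz, Ctsh, Grn, Tpp1, Mcoln1 and Atg5 then changed sign. Gusb and Ctsl kept their sign and lack of overlap. That was fixed in advance, because groups that do not overlap cannot come to overlap when mice are left out. Lgmn was then separated in the opposite direction, with impaired mice at 10.35 to 10.42 and intact mice at 10.45 to 10.61, and a difference of -0.16 (unadjusted p = 0.114). Without intact mouse 3 alone, 15 genes were higher, the median was -0.0051, and Atg7 was the 1 gene with an unadjusted p under 0.05 (0.0337).

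Markers of other cells and tissues moved with some of the same mice. The thalamus list had its lowest mean deviation in intact mouse 3, at -1.59, against -0.23 to 0.54 in the others. The choroid plexus list, led by the transthyretin gene Ttr, was at -1.12 in impaired mouse 3 and -1.06 in intact mouse 3, against -0.43 to 1.01 in the others. All 10 of its genes had a lower mean in impaired mice and all 8 thalamus genes a higher one, none past the threshold. Oligodendrocyte markers were lower in 7 of 7, with a median of -0.16, and were lowest in intact mouse 3 and impaired mouse 1, at -0.32 each. Meningeal fibroblast markers were higher in 5 of 5, with a median of 0.32, and the transporter gene Slc22a6 differed most, by 0.50 (limma unadjusted p = 0.00855, adjusted p = 0.961), with overlap. The part of these tissues in the lysosomal values was not tested.

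Microglial markers were measured because cathepsins and Grn are high in those cells. The list of 10 microglial genes gave 6 higher and 4 lower, with a median of 0.0076, and its mean deviation was highest in impaired mouse 3 (0.18) and lowest in intact mouse 4 (-0.13). The 7 genes tested of the disease-associated microglia list stood at 0.40 in impaired mouse 3, against -0.20 to 0.13 in the others. That list had 3 genes higher and 4 lower, with a median of -0.0017, and Cst7, a cathepsin inhibitor, had the highest difference at 0.57 (limma unadjusted p = 0.047, adjusted p = 0.961). Cst7 stood at 7.76 in impaired mouse 3, at 6.34 to 6.77 in the other impaired mice and at 6.10 to 6.42 in intact mice, so that the groups overlapped. Without impaired mouse 3 its difference was 0.26 (unadjusted p = 0.0657). Intact mouse 3 stood at -0.015 and -0.11 on these lists, inside the range of the other mice. The part of microglia in the cathepsin values was not tested.

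Perivascular macrophage markers gave 4 of 5 genes higher, with a median of 0.26. Cd163 measured 5.96 ± 0.15 in impaired and 5.71 ± 0.063 in intact mice (SD, n = 4 each), without overlap. Its unadjusted p was 0.0163 and its adjusted p 0.961 (limma). Lyve1 differed by 0.30 (unadjusted p = 0.0193, adjusted p = 0.961), with overlap. Both means of each gene lay under the controls' 75th percentile of 6.36. The mean level of the list was 5.85 to 6.40. Astrocyte markers gave 4 of 8 higher (median -0.0015), neuron markers 1 of 8 (median -0.059), endothelial markers 1 of 5 (median -0.099) and blood leukocyte markers 1 of 2. The part of these cells in the lysosomal values was not tested.

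**Figure D4:**
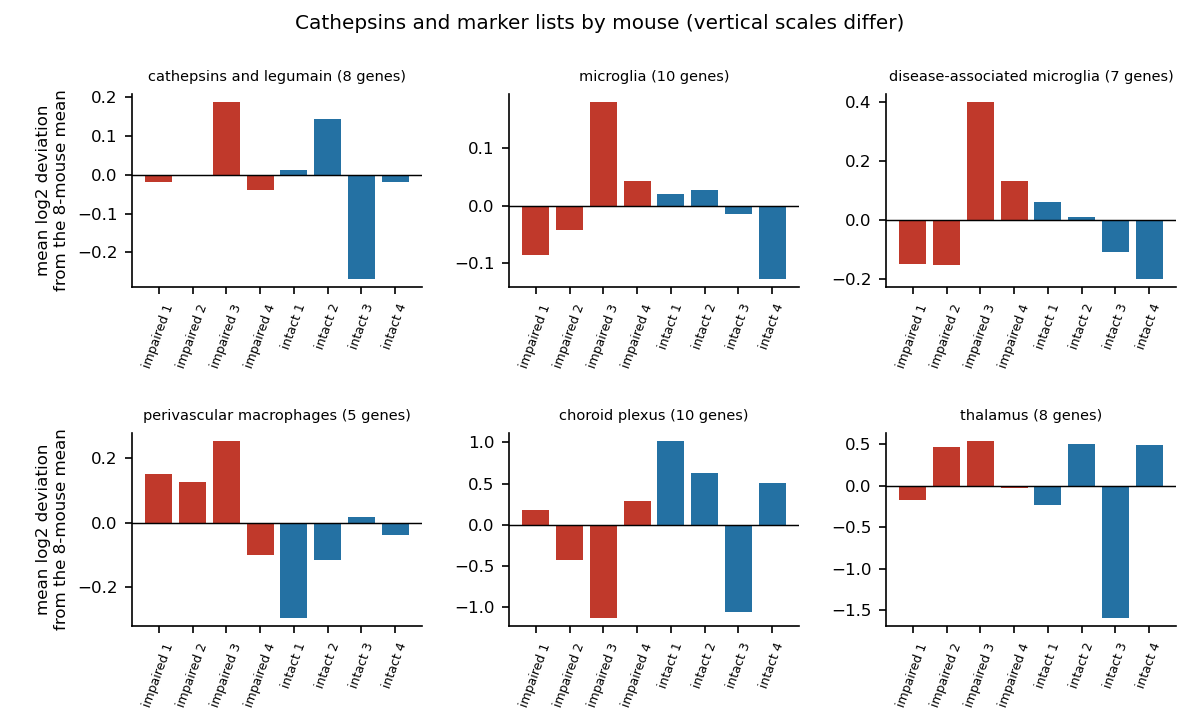
Mean log2 deviation from the 8-mouse mean of the cathepsins with legumain and of 5 marker lists, in each mouse (red impaired, blue intact; vertical scales differ between panels). The cathepsin bar is highest in impaired mouse 3 (0.19) and lowest in intact mouse 3 (-0.27), where the thalamus list is at -1.59.

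Other genes of the pathway were read from 7 lists with 150 genes, of which 140 were matched and 138 tested. Of these, 57 were higher and 81 lower in impaired mice, with a median of -0.015, near the -0.0083 of all genes. None passed the adjusted threshold (limma). At an unadjusted p under 0.05, 0 were higher and 2 lower, Mitf and Pik3c3, beside the 2.17% and 2.52% of genes tested. Groups did not overlap in Mitf and Atg13, both lower in impaired mice, and in 0 genes the other way, beside 1.46% and 1.12%.

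Mitf encodes a factor of the same family as TFEB and TFE3. It measured 6.67, 6.90, 6.68 and 6.78 in impaired mice and 7.15, 7.04, 7.09 and 7.01 in intact mice. Every impaired mouse lay below every intact one. The means were 6.76 ± 0.11 and 7.07 ± 0.063 (SD, n = 4 each), under the controls' 95th percentile. The difference was -0.32 with a standard error of 0.083, a 1.25-fold lower signal (95% interval -0.50 to -0.13, limma unadjusted p = 0.00291, adjusted p = 0.961). Over all alternatives that kept the gene it ran from -0.37 to -0.285, with adjusted p from 0.698 to 1, and a filter on the lowest 50% of genes removed it.

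Pik3c3 encodes VPS34, the lipid kinase that BECN1 scaffolds. It measured 7.16, 7.40, 7.30 and 7.42 in impaired mice and 7.61, 7.73, 7.55 and 7.42 in intact mice. Intact mouse 4 lay within the impaired range, and the other intact mice lay above it. The fitted difference, -0.25, had a standard error of 0.094 (unadjusted p = 0.022, adjusted p = 0.961, limma). Its partner Becn1 differed by 0.11 in the opposite direction, with an interval from -0.095 to 0.31. Atg13, a subunit of the ULK1 complex, was 7.58 ± 0.033 in impaired and 7.66 ± 0.020 in intact mice (SD, n = 4 each), a difference of -0.074 (unadjusted p = 0.31). It was singled out after its values were seen, for its lack of overlap. Both group means of Pik3c3 and of Atg13 lay under the controls' 95th percentile.

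By list, other lysosomal hydrolases and cofactors gave 13 of 28 higher with a median of -0.012, from Galc (-0.34), which degrades galactosylceramide of myelin, to Galns (0.26), a sulfatase. Other membrane and sorting genes gave 13 of 29 (median -0.028). V-ATPase subunits, which pump protons into the lysosome, gave 7 of 17 (median -0.0094), from Atp6v0b (-0.20) to Atp6v0e (0.22). Other initiation and nucleation genes gave 5 of 19 higher (median -0.052), and other conjugation genes 4 of 9 (median -0.015). Receptor and fusion genes gave 6 of 17 (median -0.036), and MiT factors with mTORC1 regulators 9 of 19 (median -0.0021). Genes named for the ends of a list were chosen after their values were seen.

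The extended palindrome was also counted in the promoters of these lists. It was in 3 of 12 V-ATPase genes with a promoter (25%), in 5 of 22 membrane and sorting genes (22.7%) and in 2 of 24 hydrolases (8.33%). It was in 1 of 7 other conjugation genes (14.3%), and in 0 of 16 initiation and nucleation genes, 0 of 14 receptor and fusion genes and 0 of 18 MiT and mTORC1 genes. These shares stand beside 1.81% of all genes tested with a promoter.

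**Figure D5:**
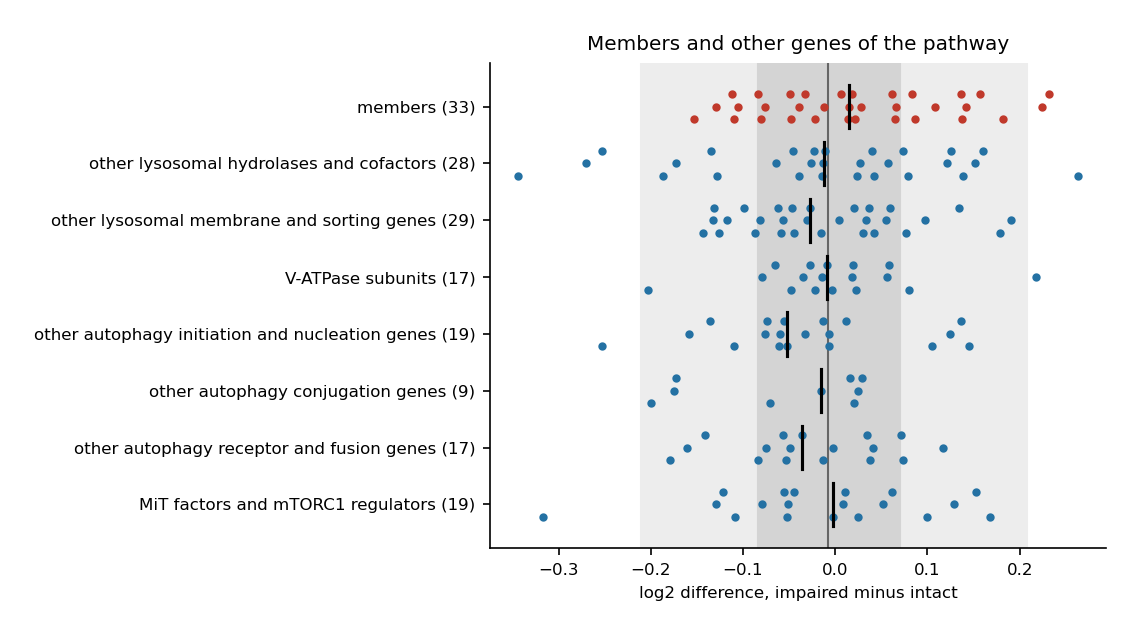
Log2 difference, impaired minus intact, of the 33 genes of the set (red) and of 138 other pathway genes in 7 lists (blue); each point is a gene, black bars are list medians, dark grey runs from the 25th to the 75th percentile of all genes tested, light grey from the 5th to the 95th, and the grey line their median of -0.0083. The list medians lie between -0.052 and 0.015, and Galc and Mitf lie farthest to the left.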

How the data were processed

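Per the labels' protocols, 1 ng of total hippocampal RNA from each of 8 mice was amplified and hybridised to an Affymetrix mouse array. The authors deposited log2 values made with RMA, per the submitters' processing notes. Its version is not given in the sources used here, nor is the genome build. RMA fits all arrays together and in general compresses differences of dim genes, which was not measured here. Precision is limited by the number of arrays.

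The table held 29129 probe sets. The platform's probe table gave 19572 a single gene symbol and 0 several, and all 19572 matched RefSeq (GRCm38.p6) by Entrez identifier. The probe set with the highest mean stood for a gene (55 of 19505 genes had several, none of them in the set), and the 25% of genes with the lowest mean were dropped (floor 5.33), which left 14628. No pair of arrays held identical values. Differences were fitted with limma 3.58.1 in R 4.3.3 (lmFit, eBayes, two-sided, Benjamini-Hochberg over all genes tested, threshold 0.05), and tested on simulated data. Intervals cover 95%. Tables and figures were made with pandas 2.3.3 and matplotlib 3.10.9.

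Every gene of the set is described. Values by mouse are given for genes with an unadjusted p under 0.05 or without overlap, and otherwise for the gene of a role with the smallest p. Of the pathway lists, genes with an unadjusted p under 0.05 are named, at most 4 a list. The genes, lists and markers were chosen with earlier results of these data known. Replicate numbers are separate mice and do not pair them: the correlations of same-numbered deviations were 0.028, 0.033, -0.048 and -0.10. Alternatives were other normalizations, filters, probe set rules, array weights, an intensity trend, a replicate block and leaving out mice.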

Additional observations from a re-analysis of the deposited data

Results flagged for a closer look

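Within-group gaps were checked with Dixon's ratio in 66 groups of 4 values for the 33 genes and 22 groups for marker lists, against its 95% critical value for 4 values. Chance puts about 1 in 20 groups past it, and 1 of 66 and 2 of 22 were. Ppt1, the palmitoyl thioesterase, was 9.15 in impaired mouse 1 and 9.23 to 9.25 in the other impaired mice (ratio 0.86). The mean level of the blood leukocyte markers was 5.77 in impaired mouse 1 and 6.29 to 6.39 in the other impaired mice (ratio 0.842). The mean level of the neuron markers was 11.44 in intact mouse 2 and 11.37 to 11.38 in the other intact mice (ratio 0.87).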

How the results depend on the processing

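Over 17 alternatives, no gene of the set passed an adjusted p of 0.05 (lowest 0.698). The median difference moved by less than 0.064, the within-group SD over mice of the set's median deviation. That SD is for single mice, so it is wider than the error of a difference between means of 4. The median difference changed sign without mouse 3 of both groups and without intact mouse 3 alone. The count with an unadjusted p under 0.05, 1 in the fit reported, was 2 with array weights (Gusb and Atg7), 0 with an intensity trend and robust prior, 0 with a replicate block and 0 without mouse 3 of both groups; it ran from 0 to 2 when single mice were left out. The replicate block rests on a shared number only. It could not change the count of genes without overlap or of genes higher, because each number holds 1 mouse of each group. Genes without overlap ran from 2 to 4 when single mice were left out, 4 without impaired mouse 4 (Ctsl, Gusb and Atg7 higher, Gaa lower). That count could only stay or rise, because leaving out a mouse cannot make separated groups overlap. Genes higher in impaired mice numbered 12 without mouse 3 of both groups. Over all genes tested, 0 passed the adjusted threshold in each alternative except 1 gene with the intensity trend.

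Of 561 single-gene values, 32 changed sign, in 16 of 33 genes, 21 of them on leaving out a mouse. Part of the 561 could not change. The filters, the intensity trend, the replicate block and the mean over probe sets leave each difference of the set as it was. With array weights Tpp1 was -0.0001. With quantile normalization applied again, Lamp1 was 0.0098, Gabarapl1 0.0059 and Sqstm1 0.010. Without mouse 3 of both groups, Ctsh was -0.073, Ctss -0.026, Ctsz -0.12, Tpp1 -0.028, Grn -0.0047, Mcoln1 -0.0084 and Atg5 -0.043. Leaving out single mice, the range was -0.0079 to 0.28 for Ctsz, -0.031 to 0.081 for Hexa, -0.041 to 0.032 for Tpp1, -0.0051 to 0.15 for Npc2 and -0.055 to 0.047 for Lamp1. It was -0.16 to 0.0024 for Lamp2, -0.056 to 0.084 for Tfe3, -0.048 to 0.091 for Ulk1, -0.015 to 0.071 for Atg5, -0.085 to 0.0090 for Map1lc3a and -0.077 to 0.014 for Sqstm1. Leaving out single mice moved Cst7 between 0.26 and 0.74, Cd163 between 0.19 and 0.30, Lyve1 between 0.24 and 0.36 and Slc22a6 between 0.35 and 0.61, an alternative chosen after seeing the data. The cause was not tested. Among genes named above, Gusb, Tfeb, Mitf, Pik3c3, Atg13, Slc22a6, Cst7, Galc and Galns had means under the negative controls' 95th percentile.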
